A study of Danio rerio with 7 samples.

Results

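Sall4-only sites in H3K4me3 domains are peaks of the zinc finger transcription factor Sall4 that overlapped no peak of the homeodomain factor Cdx4 and shared at least 1 bp with a called H3K4me3 domain. Of 9747 Sall4 peaks, 7430 overlapped no Cdx4 peak (76.2% of the list), and 559 of these lay in an H3K4me3 domain. H3K4me3 domains held 7.58% of all Sall4 peaks. Both shares belong to the way the 559 sites were chosen and are given only as a description. The sites came from chromatin immunoprecipitation and sequencing (ChIP-seq) of whole wild-type zebrafish embryos (Tu strain) collected at bud stage, when gastrulation ends. Sall4 and Cdx4 carried a Myc tag and were both precipitated with an anti-Myc antibody, and the histone marks H3K27ac and H3K4me3 were precipitated with antibodies of their own. Some embryos were uninjected and others received mRNA at the 1-cell stage, and the labels do not tie either treatment to a library. Wild-type embryos make no Myc-tagged Sall4 or Cdx4 of their own, so the tagged factors were supplied to them. The sites are thus those of tagged Sall4, and binding of the embryo's own Sall4 was not measured. For an experiment about 2000 embryos were staged and 500 collected, so each library is a pool of embryos and of all their cell types.

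Sall4 belongs to the spalt family and is known for its part in keeping stem and progenitor cells undifferentiated. H3K4me3 marks nucleosomes at promoters, where they typically flank a stretch around the transcription start that holds few nucleosomes. H3K27ac marks active promoters and active enhancers. The H3K27ac list played no part in choosing the sites. Cdx4 is a caudal-type factor known for its part in patterning the posterior embryo. Each of the 4 targets had 1 library and 1 deposited list of intervals, with 5166 Cdx4 peaks, 4599 H3K27ac domains and 19401 H3K4me3 domains beside the Sall4 list. The 3 input libraries and any precipitation from untagged embryos were not analysed here, and sequencing depth is unknown. No comparison had replicate libraries, so no test between samples was possible and no p-value is given. Intervals are 95% intervals for counting error only. They treat peaks as independent, although peaks of 1 list share a library and some share a domain. Coordinates are those of the deposited lists, on zebrafish assembly Zv8, counted from 1 with both ends included. Annotation of that assembly was not used here, so sites are named by position and no gene was assigned to them.

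Most of the 559 sites were alone in their domain. They fell in 533 H3K4me3 domains, 2.75% of all those called. Of these domains, 509 held 1 site, 22 held 2 and 2 held 3. Whether that is more or less sharing than even placement would give was not tested. No site could overlap more than 1 H3K4me3 domain, since peaks were 100 bp wide and the narrowest gap between neighbouring domains was 200 bp. By distance between peak centres, another of the 559 sites lay within 1000 bp of 45 sites (8.05%). It was within 5000 bp of 74 sites (13.2%) and within 100000 bp of 129 sites (23.1%). One domain with 3 sites was on chromosome 7 at 19146500 to 19149298. Its sites started at 19146412, 19148124 and 19148705 and had Sall4 scores of 138, 129 and 78. The other was on chromosome 8 at 19633400 to 19634598, with sites that started at 19633671, 19634440 and 19634541 and had scores of 143, 67 and 103. None of these 6 sites lay in an H3K27ac domain. Over all 559 sites that share was 8.59%, so a count from only 6 sites does not set them apart.

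Sall4 scores of the 559 sites crowded into the middle of the Sall4 list. The score is the authors' own value per peak, what it measures is not given in sources used here, and it only ranks peaks within a list. Scores of the sites ran from 35 to 279 with a median of 84 (quartiles 69.5 and 105), against a median of 83 (65 and 109) for the 6871 Sall4-only peaks outside H3K4me3 domains. The Sall4 list was divided into 4 score groups at scores of 68, 88 and 121. The top group held 81 of the 559 sites (14.5%, exact binomial 95% interval 11.7 to 17.7%), where 25.1% of all Sall4 peaks fell in it. Sall4-only peaks outside H3K4me3 domains reached 19.1%, so the sites were lower by 4.59 percentage points (difference -4.59, Newcombe interval -7.43 to -1.30). The 4 groups were also redrawn among only the Sall4 peaks scoring at or above the median of their list. For that stricter top group the interval included 0 (-3.24 points, -7.33 to 1.84), which does not recheck the group cut at 121. The lowest group held 21.6% of the sites and 28.1% of the Sall4-only peaks outside, a difference of -6.46 points (-9.85 to -2.71). Both ends of the list were thus thinner among the sites than among Sall4-only peaks elsewhere, and the groups between them were fuller, by 5.41 points (1.59 to 9.48) and 5.64 points (1.71 to 9.78). Part of this was also seen at the 180 shared Sall4 peaks in H3K4me3 domains. The sites minus those peaks came to 0.53 points (-6.75 to 6.96) in the lowest group and 0.03 (-7.94 to 7.44) in the second. In the top group it was -9.40 points (-16.6 to -2.93) and in the third 8.83 (1.08 to 15.8). Across the 559 sites the Sall4 score was nearly unrelated to the width of the H3K4me3 domain (Spearman 0.04, a description over peaks of 1 library) and to the score of that domain (0.05).

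The 10 sites with the highest Sall4 scores are described by position. The top site (chromosome 5, 11900122 to 11900221) scored 279 and lay within an H3K4me3 domain of 1577 bp. The nearest Cdx4 peak centre there was 421525 bp away and the nearest other Sall4 peak centre 400687 bp away. The site on chromosome 7 at 52481002 to 52481101 (score 264) only touched its domain, with 2 bp of overlap. On chromosome 6, the site at 42394989 to 42395088 (score 253) lay in a domain of 1199 bp whose own deposited score was 0. A chromosome 8 site at 7581050 to 7581149 (score 252) was 130440 bp from the nearest other Sall4 peak centre. A chromosome 2 site at 54535876 to 54535975 (score 245) was 139561 bp from it. On chromosome 23, the site at 27483698 to 27483797 (score 249) lay 944 bp from a Cdx4 peak centre and 972 bp from another Sall4 peak centre. A pair of these sites came close to H3K27ac domains without entering them. That at 15823091 to 15823190 of chromosome 15 (score 244) was 9 bp from such a domain, and that at 39183375 to 39183474 of chromosome 8 (score 237) was 125 bp from one. The remaining top sites lay at 2533764 to 2533863 of chromosome 13 (score 216) and at 17077316 to 17077415 of chromosome 6 (score 207). Of the 10, 0 lay in an H3K27ac domain and 2 had a Cdx4 peak centre within 5 kb. Over all 559 sites these shares were 8.59% and 15.9%, so counts this small from 10 sites do not set them apart.

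The sites lay throughout their domains, from the middle to the edge. The whole 100 bp peak was inside the domain at 435 of 559 sites (77.8%), and the peak centre was outside it at 65 sites (11.6%). Among the other 494 sites, 247 had their centre in the inner part of the domain, up to 50% of the way from middle to edge, and 247 in the outer part, which has the same length. The median depth of the centre inside the edge was 212 bp (quartiles 63.5 and 445.5 bp). H3K4me3 domain starts were multiples of 100 in 98.8% of the deposited domains, so edges are known only to about 100 bp, and 183 sites (32.7%) had their centre within 100 bp of an edge on either side. An overlap of 10 bp or less was found at 9 sites. The smallest overlaps were 1 bp on chromosome 7 at 33681798 (score 78) and 2 bp on chromosome 9 at 50032702 (score 96), besides the site with a score of 264 described above. Sall4-only peaks that ended next to a domain without sharing a base, on chromosome 10 at 27942799 and chromosome 2 at 22553899, had scores of 89 and 87. Within 100 bp of a domain but not touching it were 144 Sall4-only peaks. At the Cdx4 limit, the site nearest to a Cdx4 peak was on chromosome 17 at 14369969 (score 77), with centres 103 bp apart. On the other side of that limit, the Sall4 peak on chromosome 20 at 33244354 (score 65) had centres 98 bp apart and counted as shared.

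**Figure D1:**
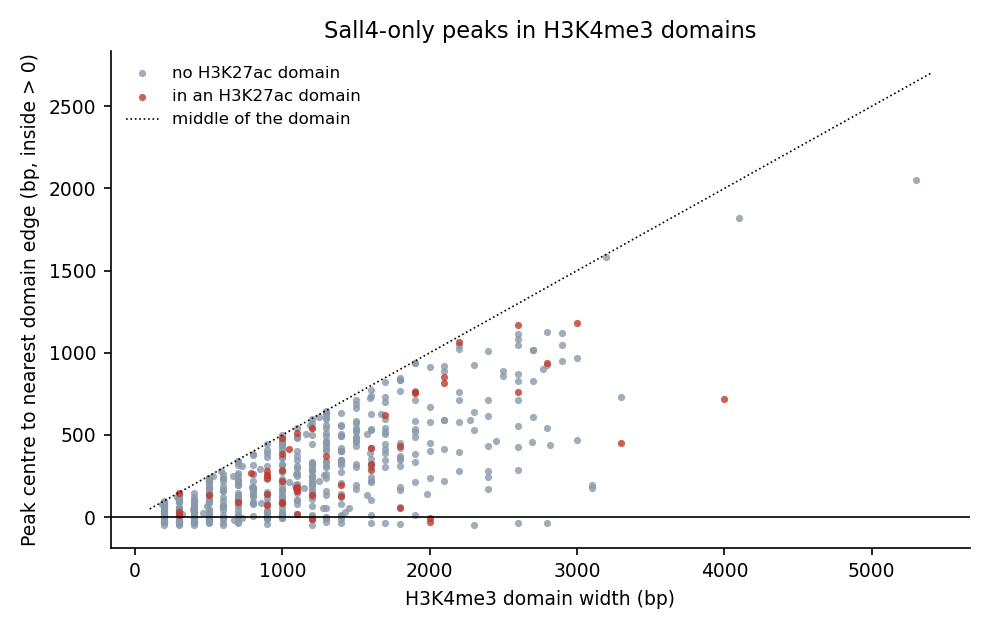
Each point is a Sall4-only peak in an H3K4me3 domain (559 in all), with the width of its domain on the horizontal axis and the distance of its centre from the nearest domain edge on the vertical axis, both in bp and positive inside. Points fill the space between the edge and the dotted line for the middle of the domain, and the 48 red points in H3K27ac domains are scattered among the others.

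Sites were densest in the widest H3K4me3 domains. Domains that held a site had a median width of 1085 bp (quartiles 599 and 1575 bp), against 599 bp (lower quartile 372 bp) for the 18352 domains with no peak of either factor. Since a wider domain has more room for a peak, the number of peak centres per Mb of domain was also taken. It was 33.9 (exact Poisson interval 27.3 to 41.7) in domains up to 500 bp, 26.2 (21.9 to 31.2) over 500 and up to 1000 bp, 30.1 (25.3 to 35.6) over 1000 and up to 1500 bp and 47.4 (39.8 to 56.0) in domains over 1500 bp. The widest class thus had a density whose interval did not reach the intervals of the 2 middle classes. It did overlap the interval of the narrowest class, and density did not rise steadily with width. In domains over 1500 bp, the inner part held 55.0 centres per Mb (43.6 to 68.4) and the outer part 39.9 (30.3 to 51.5), with intervals that overlap. Within 100 bp of the edge of these domains the density was 13.4 per Mb (3.64 to 34.2, 4 sites), and at depths over 750 bp it was 69.3 per Mb (50.7 to 92.5, 46 sites). The widest domain with a site, 5299 bp on chromosome 25 at 36203700 to 36208998, held it at 36205701 (score 65), 2051 bp from the nearest edge. The next in width, 4099 bp on chromosome 6 at 56209300 to 56213398, held a site at 56211526 (score 82), 1823 bp inside. Domains with a site also had higher deposited H3K4me3 scores, with a median of 440 against 242 for domains with no factor peak. In domains up to 500 bp the medians were 182 and 106, and in domains over 1500 bp they were 973.5 and 850. Over 500 and up to 1000 bp they were 350 and 326, and over 1000 and up to 1500 bp 628 and 580.5. The order was the same in each width class, but the medians were closer than over all widths.

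Sall4-only peaks were denser inside H3K4me3 domains than elsewhere. With gaps of all widths pooled, they were about as dense just outside the edge as just inside it. Overlap with the domain is part of the rule, so the densities are a description. Inside domains there were 32.9 peak centres per Mb (30.03 to 35.9), and outside them 5.14 per Mb (5.02 to 5.27). In the first 250 bp outside an edge the density was 29.9 per Mb (26.4 to 33.7, 264 peaks), the same within counting error as the 29.7 per Mb (26.2 to 33.7, 248 peaks) in the first 250 bp inside. Of those 264 peaks, 90 (34.1%) lay in gaps up to 500 bp between domains. In gaps over 5000 bp the first 250 bp outside held 19.4 per Mb (16.2 to 23.1), below the density inside. With all gaps pooled the density was 9.18 per Mb (7.17 to 11.6) from 250 to 500 bp outside. It was 4.51 per Mb (3.50 to 5.73) from 500 to 1000 bp outside, below the 7.41 per Mb (6.44 to 8.49) from 1000 to 2000 bp outside. Sall4 peaks shared with Cdx4 are fewer in all and were sparser per Mb. They too were about as dense just outside the edge as just inside it. Of the distances up to 5000 bp outside, both sets were sparsest from 500 to 1000 bp. They had 8.63 per Mb (6.76 to 10.9) in the first 250 bp inside and 9.50 per Mb (7.58 to 11.8) in the first 250 bp outside. From 500 to 1000 bp outside, shared density was 1.01 per Mb (0.565 to 1.67). From 250 to 500 bp outside it was 2.59 per Mb (1.58 to 3.99), and from 1000 to 2000 bp 3.32 (2.68 to 4.06). That is the reverse of the Sall4-only order at these distances, with intervals that overlap in both sets. Densities deep inside domains were not scaled to the size of each list. Sall4-only density was 38.3 per Mb at depths of 500 to 750 bp and 91.4 per Mb (53.2 to 146.3) over 1000 bp. Shared density was 17.7 (11.9 to 25.2) and 16.1 per Mb (3.33 to 47.1 for the latter, from 3 peaks). At 500 to 750 bp it was thus also above that in the first 250 bp inside. With 3 shared peaks over 1000 bp, the values cannot show whether the 2 sets differ there beyond the size of their lists. As a share of each list, 7.08% of shared and 6.65% of Sall4-only peak centres lay inside domains.

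**Figure D2:**
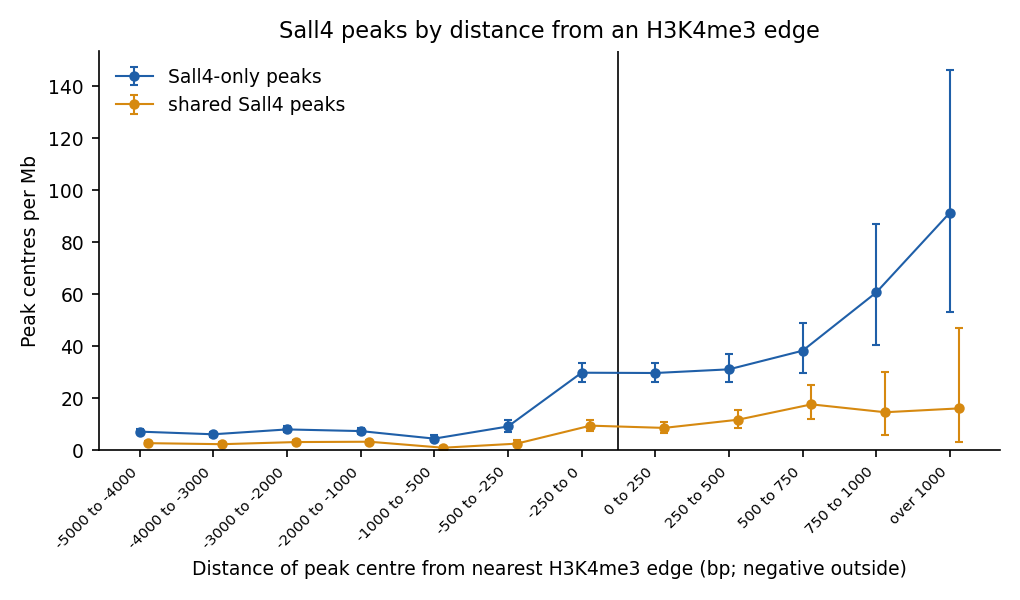
Peak centres per Mb by distance from the nearest H3K4me3 domain edge, outside (negative) and inside (positive), for Sall4-only peaks and for Sall4 peaks shared with Cdx4, with exact Poisson 95% intervals and bins of unequal width. With gaps of all widths pooled, Sall4-only density stands near 30 per Mb on both sides of the edge and falls to 4.51 per Mb at 500 to 1000 bp outside. It is highest deep inside domains, where bins hold few peaks.

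Short gaps between neighbouring H3K4me3 domains were denser in Sall4-only peaks than the domains as a whole, when all domains were used. Gaps of 200 to 300 bp, the narrowest in the list, held 130.0 peak centres per Mb (96.2 to 171.8, 49 peaks in 1777 gaps). The density was 95.7 per Mb (68.7 to 129.9, 41 peaks) in gaps over 300 and up to 500 bp, 57.5 (39.3 to 81.2, 32 peaks) in gaps over 500 and up to 1000 bp, and 16.3 (8.92 to 27.4, 14 peaks) in gaps over 1000 and up to 2000 bp. Gaps over 20000 bp held 4.92 per Mb (4.79 to 5.04). Gaps up to 500 bp together held 90 Sall4-only peaks, 111.8 per Mb (89.9 to 137.4). That interval overlaps the one at depths over 1000 bp inside domains, where the density was 91.4 per Mb (53.2 to 146.3, 17 peaks). Of these 90 peaks, 60 touched neither flanking domain and are therefore not among the 559 sites, while 30 of the 65 sites with their centre outside a domain were in such gaps. The first 250 bp outside an edge were denser in gaps up to 1000 bp, at 94.1 per Mb (77.8 to 112.9), than in gaps over 5000 bp, at 19.4 per Mb (16.2 to 23.1). Density also rose toward short gaps among other peaks. Gaps up to 500 bp held 62.1 Cdx4-only peak centres per Mb (46.1 to 81.9) and 38.5 shared Sall4 peak centres per Mb (26.2 to 54.6), against 22.7 and 10.9 per Mb inside domains. As a share of each list, 1.21% of Sall4-only, 1.34% of shared Sall4 and 1.78% of Cdx4-only peaks lay in gaps up to 500 bp. An H3K27ac domain overlapped 1 of the 90 Sall4-only peaks in these gaps (1.11%, exact interval 0.0281 to 6.04%). The share was 12.6% over all Sall4 peaks and 6.24% over Sall4-only peaks outside H3K4me3 domains, the latter just above that interval. With H3K4me3 domains over 500 bp alone the density in gaps up to 500 bp was 44.7 per Mb (14.5 to 104.4), since dropping narrow domains joins the gaps around them into wider ones. That interval holds the density inside those domains, 32.6 per Mb (29.5 to 35.98). With only the better-scoring H3K4me3 domains, the gap interval (87.1, 28.3 to 203.2) likewise holds the density inside, 34.4 per Mb. Among Sall4 peaks scoring at or above the median of their list fewer peaks were counted, and both densities were lower. The gaps held 73.3 per Mb (55.8 to 94.5), still above the 14.3 per Mb (12.5 to 16.3) inside domains.

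**Figure D3:**
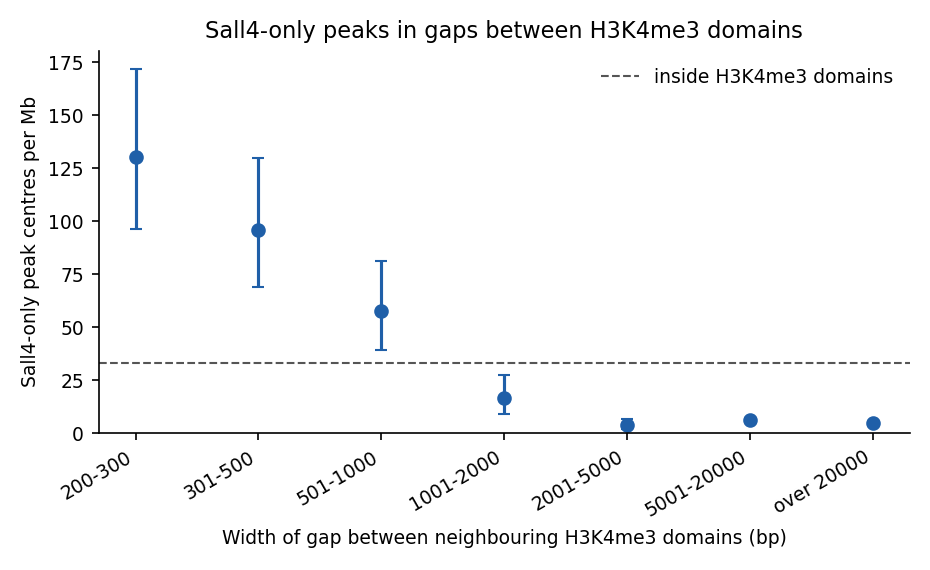
Sall4-only peak centres per Mb (vertical axis, exact Poisson 95% intervals) in gaps between neighbouring H3K4me3 domains, grouped by gap width in bp. The dashed line is the density inside domains, 32.9 per Mb, and gaps up to 1000 bp lie above it while gaps over 1000 bp lie below it.

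H3K27ac was uncommon at the sites and far less common than at Sall4 peaks shared with Cdx4 in H3K4me3 domains. An H3K27ac domain overlapped 48 of the 559 sites (8.59%, 6.399 to 11.2%), where 12.6% of all Sall4 peaks lay in one. Among the 180 shared Sall4 peaks in H3K4me3 domains, 90 did (50%, 42.5 to 57.5%), a difference of -41.4 points (-48.9 to -33.7). This comparison was not divided by the width of the H3K4me3 domain. Shared peaks also stood above Sall4-only peaks outside H3K4me3 domains, where 659 of 2137 shared peaks lay in one (30.8%, 28.9 to 32.8%). Among the 6871 Sall4-only peaks outside H3K4me3 domains, 429 did (6.24%, 5.68 to 6.84%), which is 2.34 points below the sites (0.209 to 5.01). That small difference turned with the score threshold. Among Sall4 peaks scoring at or above the median of their list, the sites minus the peaks outside came to -1.48 points (-4.08 to 2.35). The level also rested on narrow H3K27ac domains. With H3K27ac domains over 500 bp alone, 3.04% of the sites lay in one (1.78 to 4.82%), and the difference from shared peaks was -16.96 points (-23.5 to -11.5).

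H3K27ac lay over the Sall4 peak centre more often than 500 or 2000 bp beside it, at the sites and at other Sall4 peaks. H3K27ac covered the peak centre at 8.41% of the sites, and 2.33% and 2.50% of the positions 500 bp to either side along the assembly. At 2000 bp to either side it was 1.97% and 2.50%. Sall4-only peaks outside H3K4me3 domains went from 5.75% to 1.22% and 1.30% at 500 bp, and shared peaks in H3K4me3 domains from 46.1% to 13.9% and 10.6%. The median site centre was 212 bp inside its domain edge, so such steps often left the H3K4me3 domain. Within domains with a site, H3K27ac covered 6.70% of the bases, inside the interval for site centres (8.91%, 6.55 to 11.8%). The 48 sites lay in 48 separate H3K27ac domains with a median width of 499 bp (quartiles 399 and 799 bp), against 399 bp (299 and 499 bp) for all 4599 domains of that mark. Of the 48 domains, 17 (35.4%) were over 500 bp wide, against 19.7% of all. A wider domain has more room for a peak, and H3K27ac domains at other Sall4 peaks were also wide. Over 500 bp were 38.6% of those at shared peaks in H3K4me3 domains and 24.3% of those at Sall4-only peaks outside. The widest of the 48, 3299 bp on chromosome 1 at 23606900 to 23610198, held the site at 23607226 (score 112). On chromosome 16 a site at 14764568 (score 75) lay in an H3K27ac domain of 2599 bp inside an H3K4me3 domain of 3999 bp. An H3K4me3 domain of 3299 bp on chromosome 22 at 37020300 to 37023598 held 2 sites that differed in this mark. The site at 37020699 (score 109) lay in an H3K27ac domain, and the site at 37022820 (score 105) was 1521 bp from the nearest one. Of the 511 sites without H3K27ac, 24 (4.70%) had an H3K27ac domain elsewhere over the same H3K4me3 domain. Of all H3K4me3 domains, 5.53% overlapped H3K27ac, a share counted by domain and not by site.

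H3K27ac was less frequent at the sites with higher Sall4 scores, the opposite of the order among Sall4-only peaks outside H3K4me3 domains. From the top to the lowest score group, 4 of 81 (4.94%), 12 of 171 (7.02%), 15 of 186 (8.06%) and 17 of 121 sites (14.0%) lay in an H3K27ac domain. Outside H3K4me3 domains the shares were 9.38%, 6.65%, 5.85% and 4.14% in the same order. The lowest group minus the top group was 9.11 points (0.391 to 17.01) among the sites and -5.24 points (-7.12 to -3.48) outside, and these 2 differences were 14.4 points apart (5.45 to 22.5). Only in the lowest group did the interval for the sites minus the peaks outside exclude 0, at 9.91 points (4.72 to 17.3). The groups rest on few sites, and with assembled chromosomes alone the interval of the 9.11 points included 0 (8.57, -0.136 to 16.1). Groups redrawn among only the better-scoring Sall4 peaks gave 5.81 points (-4.16 to 12.9). That compares other groups, without the original lowest one, and so does not recheck the 9.11 points. With the original groups and only the better-scoring H3K27ac domains the interval also included 0 (7.04, -0.892 to 14.2). The median H3K4me3 domain width of the sites was 1199 bp in the top group and 1099 bp in the lowest. From top to lowest, 18.5%, 17.5%, 15.6% and 12.4% had a Cdx4 peak centre within 5 kb. Their part in the result was not tested.

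**Figure D4:**
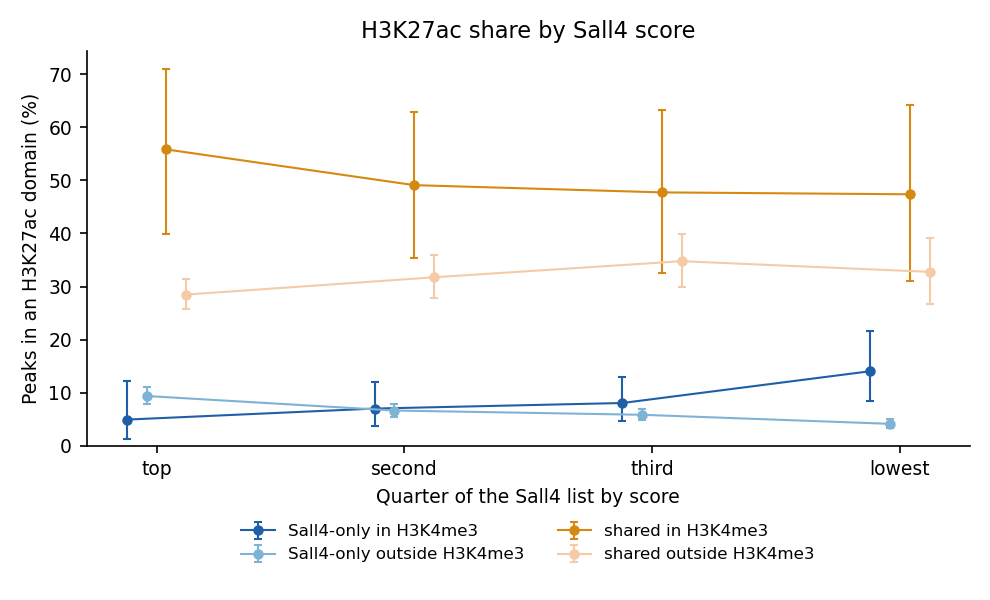
Share of peaks in an H3K27ac domain (%, exact binomial 95% intervals) in 4 score groups of the Sall4 list, from top to lowest, for Sall4-only and shared peaks inside and outside H3K4me3 domains. Sall4-only sites in H3K4me3 domains go from 4.94% to 14.0%, Sall4-only peaks outside go from 9.38% to 4.14%, and both shared sets lie above 28%.

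H3K4me3 domains that held a site overlapped H3K27ac more often than domains with no factor peak, at most widths. An H3K27ac domain overlapped 69 of the 533 domains with a site (12.9%, 10.2 to 16.1%) and 786 of the 18352 with no Sall4 or Cdx4 peak (4.28%, 3.99 to 4.59%), where 5.53% of all H3K4me3 domains did. The difference was 8.66 points (6.06 to 11.8). Wide domains overlapped H3K27ac more often in both groups, so the comparison was repeated by width. It gave 1.91 points (-0.416 to 6.98) up to 500 bp, 8.16 points (3.86 to 14.5) over 500 and up to 1000 bp, 5.51 points (0.838 to 12.2) over 1000 and up to 1500 bp and 7.99 points (1.32 to 16.04) over 1500 bp. The interval included 0 only in the narrowest class. With H3K27ac domains over 500 bp alone the difference over all widths was 2.86 points (1.46 to 4.91). Counted by bases, H3K27ac covered 2.59% of the length of domains with no factor peak and 6.70% of the length of domains with a site, and it covered 8.91% of the site centres that lay inside a domain (44 of 494, 6.55 to 11.8%). A Cdx4 peak lay elsewhere in 22 of the 533 domains, and 9 of these 22 (40.9%, 20.7 to 63.6%) overlapped H3K27ac. Among the 511 domains with no Cdx4 peak it was 60 (11.7%, 9.08 to 14.9%), and among the 513 domains with a Cdx4 peak and none of the sites 218 (42.5%, 38.2 to 46.9%).

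**Figure D5:**
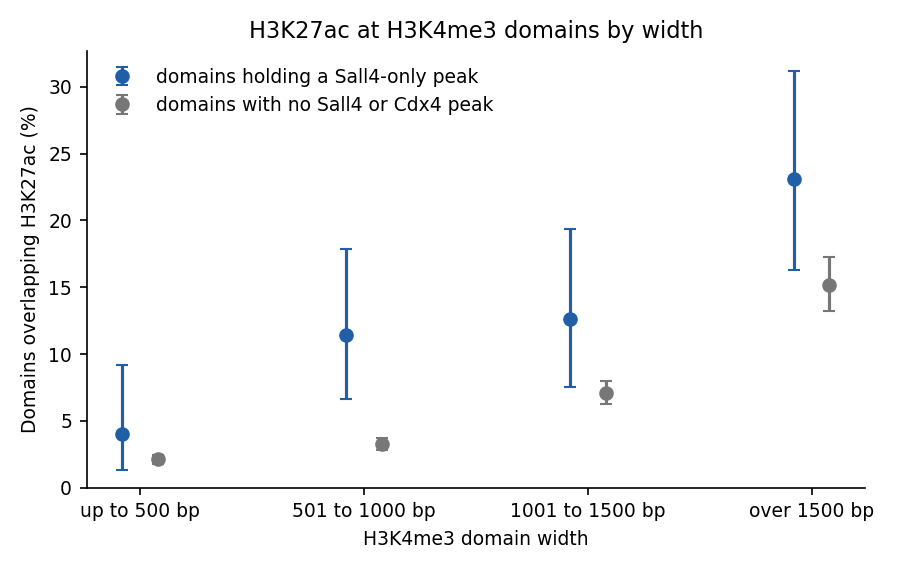
Share of H3K4me3 domains that overlap an H3K27ac domain (%, exact binomial 95% intervals) in 4 classes of domain width, for domains that hold a Sall4-only peak and for domains with no Sall4 or Cdx4 peak. Both groups are higher in wider domains, and domains with a Sall4-only peak go from 4.03% in the narrowest class to 23.1% in the widest, against 2.12% and 15.1%.

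Cdx4 peaks were seldom near the sites, and H3K27ac was more frequent where one was. A Cdx4 peak centre lay within 5 kb of 89 sites (15.9%, 12.99 to 19.2%), where 39.1% of all Sall4 peaks had one, a figure that includes the shared peaks. Sall4-only peaks outside H3K4me3 domains reached 20.4%, and the sites were lower, with a difference of -4.47 points (-7.43 to -1.07). Neither set overlaps a Cdx4 peak, by its choice. The distance to the nearest Cdx4 peak centre had a median of 81049 bp for the sites and 34136.5 bp for the Sall4-only peaks outside. Sites with a Cdx4 peak centre within 5 kb lay in an H3K27ac domain in 15 of 89 cases (16.9%, 9.75 to 26.3%), and the others in 33 of 470 (7.02%, 4.88 to 9.72%), a difference of 9.83 points (2.93 to 19.2). Within 500 bp of a Cdx4 peak centre the share was 6 of 23 (26.1%, 10.2 to 48.4%). The same contrast outside H3K4me3 domains gave 13.9% and 4.28%, a difference of 9.64 points (7.83 to 11.6).

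Other Sall4 peaks were also sparser around the sites than around Sall4-only peaks elsewhere. Another Sall4 peak centre lay within 5 kb of 176 sites (31.5%, 27.7 to 35.5%), where 46.8% of all Sall4 peaks had one. Sall4-only peaks outside H3K4me3 domains reached 43.8%, a difference of -12.3 points (-16.2 to -8.16). The median distance to the nearest other Sall4 peak centre was 26658 bp for the sites and 6874 bp for the Sall4-only peaks outside.

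The sites were found on all 25 assembled chromosomes. Counts ran from 10 on chromosome 20 to 38 on chromosome 7, with a median of 21. As a share of the H3K4me3 domains of a chromosome, domains with a site ran from 1.35% on chromosome 20 (exact interval 0.651 to 2.47%) to 4.60% on chromosome 13 (3.19 to 6.40%), with a median of 2.72%. Chromosomes 24 and 23 came next to the top, at 4.42% (2.79 to 6.61%) and 4.06% (2.71 to 5.81%), and neighbours in this order had overlapping intervals. On chromosome 4 the part of the sequence beyond its midpoint held 319 H3K4me3 domains and 0 sites, which allows a share of up to 1.15% (exact upper limit). The part before the midpoint held 14 domains with a site among 537. Beyond the midpoint there were also only 4 Sall4-only peaks in all, against 217 before it. Unplaced sequences held 18 of the 559 sites (3.22%, 1.92 to 5.04%), where 4.76% of all Sall4 peaks were on such sequences. The sites minus the Sall4-only peaks outside H3K4me3 domains came to -1.45 points, with an interval that included 0 (-2.74 to 0.421).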

How the data were processed

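ChIP-seq intervals of 4 targets, 1 library each, were used as the authors deposited them. Peaks of Cdx4 and Sall4 carry the name of the GPS caller, per the names of the deposited intervals. The caller of the domains is not given in sources used here. The submitters' processing notes name CASAVA 1.4 and Bowtie 0.12.7 without their roles. Peak thresholds, filters and any use of input are not given in sources used here. The score the authors deposited with each interval was used only for ranks within a list, and interval widths, starts and ends were used as deposited. Coordinates were read from 1 because 0 intervals start at position 0.

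Shares carry exact (Clopper-Pearson) intervals, differences Newcombe intervals and densities exact Poisson intervals. The length of a sequence was the last position any list reached (1363.6 Mb in all). Top-scoring sites, sites in the widest domains, sites at the limits of the rule and domains with 3 or more sites were named by fixed rules. The sites and comparisons were chosen with earlier results of these data known. The gap densities, the densities by distance from an edge and the H3K27ac shares by score group and by distance to Cdx4 were added after the values were seen. Genes and sequences were not used, since the annotation at hand is of another assembly. Overlap, density and interval code was tested on simulated data. Tools were scipy 1.17.1, pandas 2.3.3, numpy 2.4.6 and matplotlib 3.10.9 under Python 3.11.15.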

Additional observations from a re-analysis of the deposited data

How the results depend on the processing

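Over 9 alternatives there were 110 recomputed values, of which 91 stayed within the interval of the reported value (or, for the number of sites, within 1.5 times), 18 moved beyond it and 1 turned its sign. The value that turned was the H3K27ac share of the sites minus that of Sall4-only peaks outside H3K4me3 domains, at -1.48 points among Sall4 peaks scoring at or above the median of their list. That setting also gave 252 sites and an H3K27ac share of 6.35%. Another Sall4 peak lay within 5 kb of 26.98% of sites. Densities were 73.3 per Mb in gaps up to 500 bp and 14.3 per Mb in domains. This setting holds fewer Sall4 peaks, which by itself lowers the number of sites and both densities. With H3K27ac domains over 500 bp the H3K27ac share was 3.04%, its difference from shared peaks -16.96 points and the difference between domains 2.86 points. With the better-scoring part of the H3K27ac list the share was 6.08% and the difference from shared peaks -27.3 points. Both settings hold fewer H3K27ac domains. Requiring the whole peak inside the domain gave 43.2% of centres in the outer part, a median domain width of 1199 bp and another Sall4 peak within 5 kb of 27.6% of sites. The first of these follows from removing peaks that cross an edge. With the domain required to cover the peak centre that share could not move, since only centres inside a domain enter it. With no Cdx4 peak centre within 500 bp, 12.3% of sites had one within 5 kb, a fall that follows from removing the sites nearest to Cdx4. The better-scoring part of the H3K4me3 list gave a median width of 1261.5 bp and 87.1 per Mb in gaps, and domains over 500 bp gave 1199 bp and 44.7 per Mb. Alternatives for the gap density, the density in domains and the H3K27ac difference between score groups were chosen after seeing the data. The share on unplaced sequences has no value with assembled chromosomes alone. No paired analysis was possible because each target had 1 library. Depth is unknown, so a site without a called domain is not shown to lack the mark.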
